A study of Rattus norvegicus with 12 samples.

Results

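Excitation-contraction coupling was followed in rat esophagus through 10 genes, Ryr1, Cacna1s, Cacnb1, Cacng1, Stac3, Jph1, Atp2a1, Casq1, Casq2 and Sln. They were taken by name from a table of 17450 genes, with the 6 columns of raw read counts, and from 6 lists of N6-methyladenosine (m6A) peaks by the gene each peak was assigned to. All 10 were found in the expression table, and 9 had a peak in at least 1 list. BE is the series' name for esophageal tissue of rats after esophagoduodenostomy (EDA) surgery, surgery that connects esophagus and duodenum, so that duodenal contents reach the esophagus, and that serves as a model of Barrett's esophagus. NC is its name for esophageal tissue of untreated rats. Each group had 3 input libraries, made from total RNA without an antibody, and 3 IP libraries, made from RNA pulled down with an m6A antibody. Strain, age, the part of the esophagus taken and any sham operation were not given in the sources used here, and nothing there says that replicates came from separate animals. The p-values therefore cover only how these samples vary, and that variation may be technical.

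Excitation-contraction coupling turns an electrical signal at the surface of a striated muscle fiber into a rise of calcium in its cytosol. In skeletal fibers a voltage-sensing calcium channel in the transverse tubule opens, through physical contact, a release channel in the neighbouring sarcoplasmic reticulum. A calcium pump then refills the store, where calsequestrin holds the calcium. The muscle coat of the rat esophagus is largely striated, unlike the smooth muscle of the lower gut.

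The 6 input libraries held 11213531 to 17471748 reads assigned to genes, and 13761 genes passed the filter on low counts. Levels are given as CPM, read counts over library size after TMM scaling. This adjusts library sizes for composition but not counts for gene length, so levels are compared between libraries and not between genes. Changes are log2 fold changes of BE over NC from edgeR's quasi-likelihood test. Their standard error (SE) was derived as the size of the log2 fold change over the square root of that test's F statistic. P-values were adjusted by Benjamini-Hochberg over all genes tested, and a change is called at an adjusted p under 0.05. By that rule 2996 genes fell and 2999 rose, which is 21.8% of the genes tested in each direction and 43.6% in all. BE input replicate 1 stood apart in its hepatocyte transcripts, whose 14 listed genes summed to 10474 CPM there, against 64.3 and 79.8 CPM in the other BE libraries and 115 to 157 CPM in the NC libraries. The values of the 10 genes without that library are given with the group result.

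All 10 genes fell in BE tissue. Their log2 fold changes ran between -5.29 for Atp2a1 and -3.27 for Cacnb1, with a median of -4.21, beside a median of 0.03 over all genes tested. For each of the 10, every BE library lay below every NC library, a separation that 27.8% of all genes tested showed in that direction. A log2 fold change at or below that of Cacnb1 was reached by 507 genes, 3.68% of those tested. Reads of the 10 genes together made up 0.0380, 0.0364 and 0.0446% of the counts in the BE libraries, against 0.834, 0.819 and 0.880% in the NC libraries. Without BE replicate 1, all 10 passed the test again, with log2 fold changes between -5.36 for Atp2a1 and -3.16 for Cacnb1. These are bulk samples, in which fewer muscle cells and less RNA per muscle cell cannot be told apart.

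**Figure D1:**
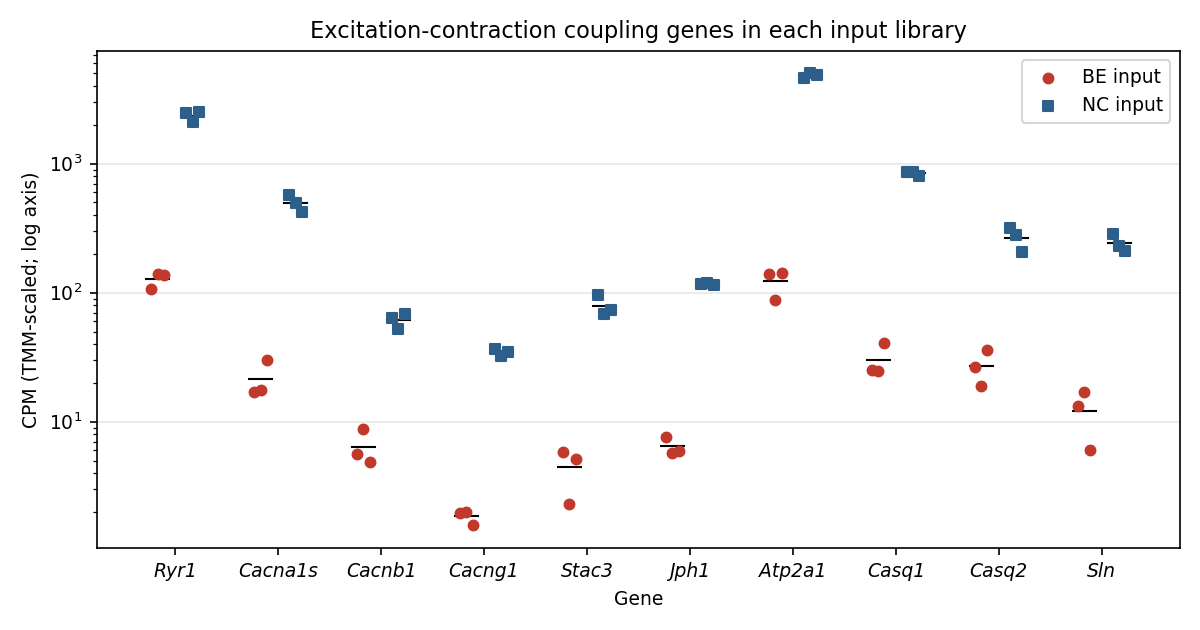
TMM-scaled CPM on a log axis of the 10 genes in each input library, BE left of NC for each gene, with 1 point per library and a line at the mean (n = 3 each). For every gene the 3 BE points lie below the 3 NC points, with log2 fold changes between -5.29 (Atp2a1) and -3.27 (Cacnb1).

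Ryr1 (ENSRNOG00000020557) encodes the ryanodine receptor of skeletal muscle, the channel through which the sarcoplasmic reticulum releases calcium. It had 108, 139 and 136 CPM in the BE libraries, against 2452, 2122 and 2509 CPM in the NC libraries. The 3 values of each group lay close together and far from those of the other group. The log2 fold change was -4.21 ± 0.14 (SE, n = 3 each) with an adjusted p of 6e-08. The values rest on 2044 to 2424 reads per BE library and 24380 to 34936 reads per NC library.

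The voltage sensor is a complex, and the 4 genes examined that encode its parts or its partner fell as well. Cacna1s (ENSRNOG00000046231) encodes CaV1.1, the pore-forming and voltage-sensing subunit. Its level was 16.9, 17.6 and 29.9 CPM in BE and 570, 495 and 418 CPM in NC, with BE replicate 3 the highest of its group. The log2 fold change of Cacna1s was -4.53 ± 0.27 (adjusted p = 1.24e-05). Cacnb1 (ENSRNOG00000004518) encodes the cytosolic beta subunit, which brings the channel to the triad, the junction of a transverse tubule with the reticulum. It had 5.64, 8.72 and 4.89 CPM in BE, against 64.1, 52.4 and 68.9 CPM in NC. Its log2 fold change, -3.27 ± 0.24 (adjusted p = 4.89e-06), and that of Casq2, -3.30 ± 0.28, were the smallest in size of the 10. Their order turned when BE replicate 2, NC replicate 1 or NC replicate 2 was left out.

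Cacng1 (ENSRNOG00000003245), for the gamma subunit that is specific to skeletal muscle, had 1.95, 2.01 and 1.58 CPM in BE and 36.3, 32.4 and 34.5 CPM in NC. Its 37, 35 and 28 reads in the BE libraries were the fewest of any of the 10 genes in each of these libraries. The log2 fold change was -4.21 ± 0.22 (adjusted p = 5.63e-07). Stac3 (ENSRNOG00000008050) encodes an adaptor that CaV1.1 needs to reach the membrane and to couple to the release channel. It had 5.80, 2.29 and 5.18 CPM in BE, against 96.0, 68.5 and 74.0 CPM in NC, and BE replicate 2 was the lowest. Stac3 fell by 4.16 ± 0.35 on the log2 scale (adjusted p = 4.91e-05).

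Jph1 (ENSRNOG00000006110) encodes junctophilin 1, which ties the transverse tubule to the reticulum and so holds the triad together. It had 7.59, 5.73 and 5.96 CPM in BE and 117, 119 and 115 CPM in NC. The NC libraries differed by few CPM from each other, with an SD of 2.31 around a mean of 117 CPM. The log2 fold change of Jph1 was -4.18 ± 0.15 (adjusted p = 7.59e-08).

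Atp2a1 (ENSRNOG00000047124) encodes SERCA1, the pump that returns calcium to the reticulum in fast-twitch fibers. It had 140, 88.3 and 142 CPM in BE, against 4613, 5012 and 4849 CPM in NC. Its fall, with a log2 fold change of -5.29 ± 0.20 (adjusted p = 1.24e-07), was the largest of the 10, and the mean level in BE was 39.1-fold lower. Sln (ENSRNOG00000009047) encodes sarcolipin, a small membrane peptide that inhibits the pump. It had 13.2, 16.9 and 6.08 CPM in BE and 285, 231 and 211 CPM in NC. BE replicate 3 was the lowest, and the groups did not overlap. Sln had the largest SE of the 10 genes, at 0.42, beside a log2 fold change of -4.33 (adjusted p = 0.000489).

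The calsequestrins store calcium inside the reticulum, Casq1 (ENSRNOG00000006930) mainly in fast fibers and Casq2 (ENSRNOG00000016243) in heart and slow fibers. Casq1 had 25.1, 24.8 and 40.7 CPM in BE, against 855, 865 and 803 CPM in NC, a log2 fold change of -4.80 ± 0.21 (adjusted p = 7.81e-07). Casq2 had 26.3, 18.9 and 35.9 CPM in BE, against 318, 278 and 205 CPM in NC, a log2 fold change of -3.30 ± 0.28 (adjusted p = 7.99e-05). Both fell, and in both the highest BE library was replicate 3. Of the heart markers, Myh6 reached at most 0.211 CPM in BE and was at 0 in all 3 NC libraries, while Nppb, which encodes a natriuretic peptide, was at 10.7 to 17.9 CPM in BE and at most 0.0718 CPM in NC. Of 11 heart markers listed, 6 were in the table, and they summed to 34.7 to 57.7 CPM in BE and 26.9 to 55.2 CPM in NC. Much of these sums was Ryr2, at 15.8 to 45.5 CPM in BE and 24.7 to 50.5 CPM in NC. The sums also mix opposite changes, as Nppb rose (log2 fold change 8.64) and Pln fell (-3.23). The part of heart markers in the level of Casq2 was not tested.

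The promoters of 5 of these genes are shown, chosen because each holds a match to a short element that was marked. That of Ryr1 was also available but had no marked match and is not shown. Any link between such matches and the fall of the 10 genes was not tested. RefSeq's table of promoters for the build GRCr8 held 6 of the 10, and each stretch runs 5′ to 3′ on the gene's strand, with 250 bases before and 50 after the start. Capitals mark CAGCTG, the form of E-box that the factors MyoD and myogenin bind, the letters TATAAA in Cacna1s, and a match to the MEF2 element in Casq2. In GRCr8 they lie at chr13:50045418-50045717 (plus strand, Cacna1s), chr7:65228225-65228524 (plus, Stac3), chr1:190475361-190475660 (minus, Atp2a1), chr13:87212661-87212960 (minus, Casq1) and chr2:192214306-192214605 (plus, Casq2).
Cacna1s: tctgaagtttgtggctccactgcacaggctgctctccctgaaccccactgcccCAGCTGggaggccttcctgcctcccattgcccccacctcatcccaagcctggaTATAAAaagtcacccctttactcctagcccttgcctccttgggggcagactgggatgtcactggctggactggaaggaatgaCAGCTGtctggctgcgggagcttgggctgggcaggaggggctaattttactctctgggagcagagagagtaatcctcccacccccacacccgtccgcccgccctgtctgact
Stac3: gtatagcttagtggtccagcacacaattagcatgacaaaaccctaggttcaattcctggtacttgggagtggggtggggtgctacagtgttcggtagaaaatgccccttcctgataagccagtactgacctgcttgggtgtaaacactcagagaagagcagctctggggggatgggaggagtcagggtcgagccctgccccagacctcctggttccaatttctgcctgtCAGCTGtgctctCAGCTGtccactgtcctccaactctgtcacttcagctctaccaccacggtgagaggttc
Atp2a1: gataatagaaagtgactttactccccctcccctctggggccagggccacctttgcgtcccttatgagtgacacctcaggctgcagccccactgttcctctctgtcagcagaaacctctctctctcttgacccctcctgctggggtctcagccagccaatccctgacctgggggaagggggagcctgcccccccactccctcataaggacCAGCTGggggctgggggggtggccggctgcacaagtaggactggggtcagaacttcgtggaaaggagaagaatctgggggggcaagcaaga
Casq1: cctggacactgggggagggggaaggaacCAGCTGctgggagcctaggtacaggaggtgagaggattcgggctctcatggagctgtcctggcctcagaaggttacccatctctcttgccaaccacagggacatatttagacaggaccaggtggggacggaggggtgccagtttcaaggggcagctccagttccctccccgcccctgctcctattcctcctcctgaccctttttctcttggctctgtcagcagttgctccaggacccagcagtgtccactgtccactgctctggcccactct
Casq2: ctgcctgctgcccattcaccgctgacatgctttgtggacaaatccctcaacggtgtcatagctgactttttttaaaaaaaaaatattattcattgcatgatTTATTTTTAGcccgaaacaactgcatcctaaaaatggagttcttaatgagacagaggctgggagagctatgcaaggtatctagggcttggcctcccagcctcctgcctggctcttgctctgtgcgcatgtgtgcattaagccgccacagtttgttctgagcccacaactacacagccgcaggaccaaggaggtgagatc
Both strands were searched, and positions count from the start of transcription. CAGCTG was present in 4 of the 6 promoters, in Cacna1s at -197 and -62, in Stac3 at -21 and -9, in Atp2a1 at -41 and in Casq1 at -222, and it was present in 15.1% of all 33469 promoters of this length. CANNTG, the general E-box that takes in CAGCTG, was present in all 6, Ryr1 and Casq2 included, and in 72.1% of all promoters. The MEF2 element was found in Casq2 at -149 and in 3.29% of all promoters. TATAAA was found in Cacna1s at -144 and in 14.2% of all promoters, while the CArG box was in none of the 6 and in 1.64% of all. A match describes the letters of the window and is neither a site nor a cause.

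Since all 10 genes fell, the balance between them was compared as 12 log2 ratios of partners in one complex or cycle, or of a muscle isoform and its wider relative. In a difference of ratios between groups the gene length cancels. With 3 libraries per group the two-sided exact permutation test cannot give a p below 0.1, which becomes 0.24 after adjustment over the 12 pairs, so none of the ratios could pass. Casq2 over Casq1 was 0.07, -0.39 and -0.18 in BE, against -1.43, -1.64 and -1.97 in NC. All 3 BE libraries were higher, by 1.51 on the log2 scale in the mean (exact permutation p = 0.1, adjusted p = 0.24).

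Atp2a1 over Ryr1, the pump over the release channel, was 0.38, -0.65 and 0.06 in BE and 0.91, 1.24 and 0.95 in NC, a difference of -1.11 with no overlap. Casq1 over Ryr1 differed by -0.62, again with no overlap. Cacnb1 over Cacna1s was -1.56, -1.004 and -2.58 in BE, against -3.15, -3.24 and -2.60 in NC, so that the groups did not overlap but BE replicate 3 and NC replicate 3 nearly met. The difference of that ratio was 1.28. For each of these 3 ratios the exact permutation p was again 0.1, the smallest possible.

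Other pairs overlapped between the groups. Cacna1s over Ryr1 was -2.66, -2.97 and -2.18 in BE and -2.11, -2.10 and -2.58 in NC, a difference of -0.34 (exact permutation p = 0.2). Jph1 over Ryr1 was -3.80, -4.57 and -4.48 in BE and -4.39, -4.15 and -4.45 in NC, a difference of 0.04 that turned to -0.20 without BE replicate 1. Stac3 over Cacna1s differed by 0.34 and turned to -0.047 without that same library. Cacng1 over Cacna1s, Casq1 over Atp2a1 and Sln over Atp2a1 differed by 0.42, 0.49 and 0.90, with exact permutation p-values of 0.4, 0.2 and 0.3. Single libraries moved some of these values by over 1.5 times. Sln over Atp2a1 was 0.37 without BE replicate 2 and 1.44 without BE replicate 3. Cacng1 over Cacna1s was 0.24 without BE replicate 1 or 2 and 0.79 without BE replicate 3. Cacna1s over Ryr1 was -0.16 without BE replicate 2 and -0.55 without BE replicate 3.

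**Figure D2:**
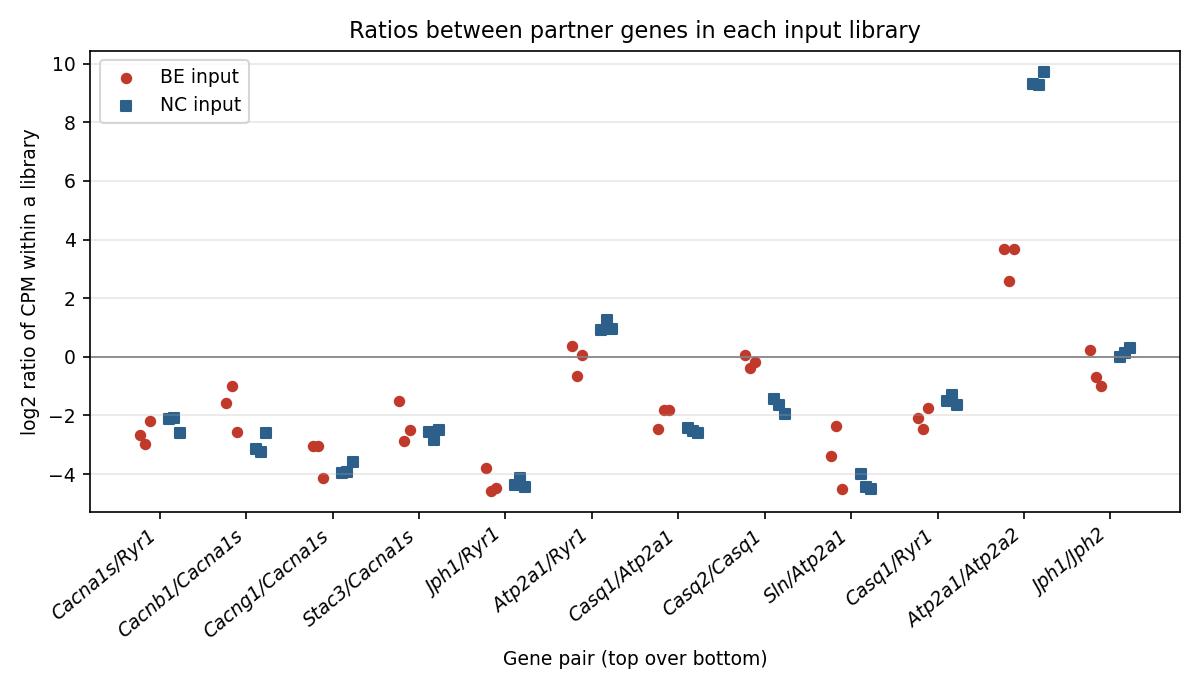
Log2 ratios of CPM for the 12 gene pairs in each input library, BE beside NC, with 1 point per library (n = 3 each). Casq2 over Casq1 is higher in all 3 BE libraries by 1.51 in the mean, and Atp2a1 over Atp2a2 is lower by 6.11.

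As shares of the reads of the 10 genes, which mix lengths and are read only between groups, Atp2a1 took 34.0 ± 6.40% in BE and 51.8 ± 2.53% in NC (SD, n = 3 each). Ryr1 took 35.7 ± 6.38% in BE and 25.3 ± 2.17% in NC. Casq2 took 7.38 ± 1.49% in BE and 2.86 ± 0.597% in NC. The BE and NC libraries did not overlap in any of these 3 shares, nor in those of Cacnb1 and Jph1. They overlapped in the shares of Cacna1s, Cacng1, Stac3, Casq1 and Sln. The shares of a library have a fixed total, so a lower share of Atp2a1 raises those of the others. The log2 fold change of Ryr1 itself, -4.21, lay at the median of the 10 genes.

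The relatives of the 10 genes serve other tissues as well as muscle, and they moved less evenly. Reads shared between relatives could be split in counting, which is not described in the sources used here. Ryr2, the ryanodine receptor of heart, had 33.4, 15.8 and 45.5 CPM in BE, against 50.5, 24.7 and 35.3 CPM in NC, and did not pass the test (log2 fold change -0.22, adjusted p = 0.718). Its groups overlapped, and the sign of its change turned when BE replicate 2 or NC replicate 1 was left out. Ryr3, a ryanodine receptor made in several tissues, had 15.2, 13.6 and 16.3 CPM in BE and 93.3, 86.2 and 54.6 CPM in NC, and it fell by 2.37 ± 0.21 on the log2 scale (adjusted p = 1.53e-05).

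Among the relatives of the voltage sensor's parts, Cacna2d1, the alpha2delta subunit found with CaV1.1, fell. It had 26.0, 28.3 and 38.7 CPM in BE, against 382, 291 and 262 CPM in NC, with a log2 fold change of -3.33 ± 0.20 (adjusted p = 3.03e-06). Cacna1c, which encodes CaV1.2 of heart and smooth muscle, fell by 0.95 on the log2 scale, to 20.6 ± 1.43 CPM in BE against 39.8 ± 2.60 CPM in NC (adjusted p = 0.000736). Cacna1d, for CaV1.3, did not pass (-1.18, adjusted p = 0.0683) but passed when NC replicate 3 was left out (adjusted p = 0.0345) and with DESeq2 (0.0387). Among beta subunits Cacnb2 had a log2 fold change of -2.03 (adjusted p = 0.0107, and 0.0518 without NC replicate 3), Cacnb4 one of -1.16 (adjusted p = 0.0382, lost under 5 of 11 alternatives) and Cacnb3 one of -0.08 (adjusted p = 0.896). Cacna2d3, at 10.1 CPM in NC, fell by 3.28 on the log2 scale (adjusted p = 0.00217). Stac and Stac2, the relatives of Stac3, stayed under 5 CPM in every library and did not pass (adjusted p = 0.057 and 0.997). Stac, with a log2 fold change of -2.20, passed under 3 of 11 alternatives, with DESeq2 (adjusted p = 0.0239), without BE replicate 1 (0.0311) and without NC replicate 3 (0.0453). Cacng6, a gamma subunit like Cacng1, had 1.26, 0.459 and 0.169 CPM in BE, against 11.5, 8.19 and 7.40 CPM in NC, and fell by 3.81 ± 0.65 on the log2 scale (adjusted p = 0.000972).

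Jph2, the junctophilin of heart and skeletal muscle, had 6.43, 9.35 and 12.1 CPM in BE, against 118, 109 and 92.9 CPM in NC. It fell by 3.52 ± 0.23 on the log2 scale (adjusted p = 3.39e-06), and its ratio to Jph1 overlapped between the groups (difference of Jph1 over Jph2 -0.63, exact permutation p = 0.3, and -0.99 without BE replicate 1 or -0.37 without BE replicate 3). Jph4, which is known from neurons, did not pass (adjusted p = 0.674). Of the pumps, Atp2a2, for the widely made SERCA2, had 10.8, 14.7 and 10.97 CPM in BE, against 7.24, 8.06 and 5.60 CPM in NC. All BE libraries were above all NC libraries, and the log2 fold change of 0.80 ± 0.28 passed with an adjusted p of 0.0388, a call lost under 7 of 11 alternatives. Atp2a1 over Atp2a2 was 3.68, 2.57 and 3.68 in BE, against 9.29, 9.26 and 9.72 in NC, a difference of -6.11 (exact permutation p = 0.1).

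Atp2a3, for SERCA3 of epithelia and blood cells, fell by 1.45 on the log2 scale to 8.29 ± 0.716 CPM in BE, against 22.6 ± 4.54 CPM in NC (adjusted p = 6e-04). Pln, which encodes phospholamban, the pump inhibitor related to sarcolipin, was at most 0.401 CPM in BE and 1.22 to 3.12 CPM in NC. Its log2 fold change of -3.23 ± 1.06 passed with an adjusted p of 0.0315, and the call was lost under 6 of 11 alternatives.

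**Figure D3:**
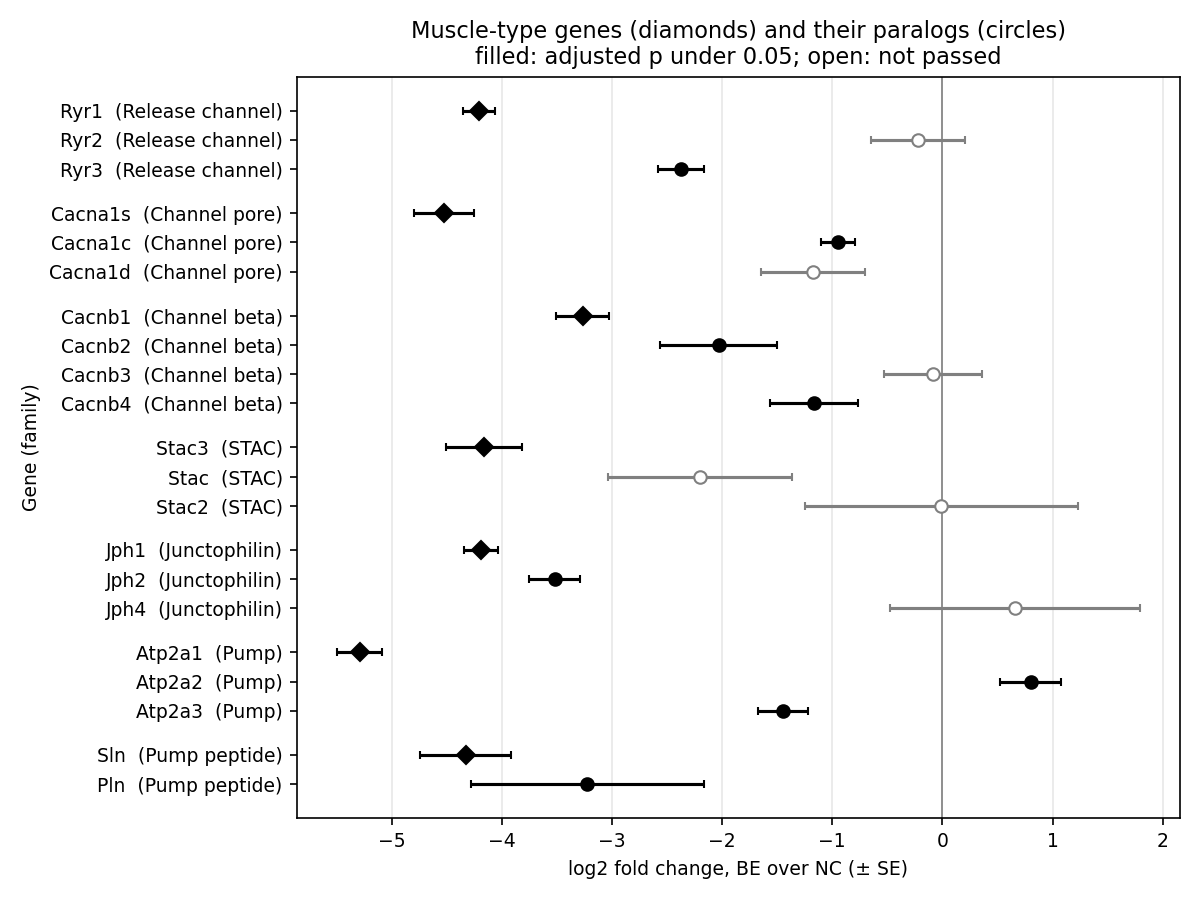
Log2 fold change of BE over NC with its SE (bars) for genes examined (diamonds) and their relatives (circles), grouped by family, filled where the adjusted p was under 0.05 (n = 3 libraries each). Ryr1 lies at -4.21 and Ryr2 at -0.22, Atp2a1 at -5.29 and Atp2a2 at 0.80, with Jph2 at -3.52 nearer to Jph1 at -4.18.

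A wider list of 70 genes of calcium handling, chosen from textbook knowledge with results of these data already known, had 64 members in the table and 62 that were tested. Of these, 42 fell, 3 rose and 17 did not pass, and their median log2 fold change was -1.71. Of all genes tested 21.8% fell, and in groups of 5 to 13 genes counts such as 2 of 5 lie near that share. Of the proteins of the triad and junction 11 of 13 fell, with a median of -3.09, and none rose. Among them Sypl2, for mitsugumin 29 of the triad, fell by 4.79 on the log2 scale. Of the genes of membrane excitation 6 of 8 fell with a median of -3.43, among them Clcn1, the chloride channel of the fiber surface, which had 0, 0.287 and 1.58 CPM in BE against 26.3, 27.9 and 29.7 CPM in NC. Of the calcium binders of store and cytosol 5 of 6 fell with a median of -3.26. Hrc, the histidine-rich protein of the reticulum, fell by 4.26 and Srl, for sarcalumenin, by 4.53. S100a1, which binds the release channel, fell by 4.14 ± 0.88 (edgeR, adjusted p = 0.00787). It had only 1.37, 0 and 1.01 CPM in BE, against 14.5, 14.7 and 13.5 CPM in NC, so the size of its change is uncertain.

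Of 9 pumps, exchangers and pump peptides 6 fell and Atp2a2 alone rose, with a median of -1.60. Slc8a3, a sodium-calcium exchanger of skeletal muscle and brain, fell by 4.69. Of 5 other release channels 2 fell, 1 rose and 2 did not pass (median -0.22). Itpr2, an inositol trisphosphate receptor found in many cell types, rose by 0.52 to 463 ± 45.6 CPM in BE, against 323 ± 23.6 CPM in NC (adjusted p = 0.00353). Calm2, 1 of 3 genes for calmodulin, rose by 0.44 (adjusted p = 0.00328). Of the genes of store-operated entry 2 of 5 fell (median -0.70), of the regulators 4 of 6 (median -1.27) and of the other surface channel subunits 6 of 10 (median -1.61). Beside these stand the 21.8% of all genes tested that fell. The 2 of 5 for store-operated entry and for release channels lie near that share and are not read as results about these groups. The 3 genes that did not pass and had the highest levels were Atp2b1, the plasma membrane pump (-0.18, adjusted p = 0.193), Camk2d, a calmodulin-dependent kinase (0.27, adjusted p = 0.0728), and Itpr3 (-0.13, adjusted p = 0.474).

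**Figure D4:**
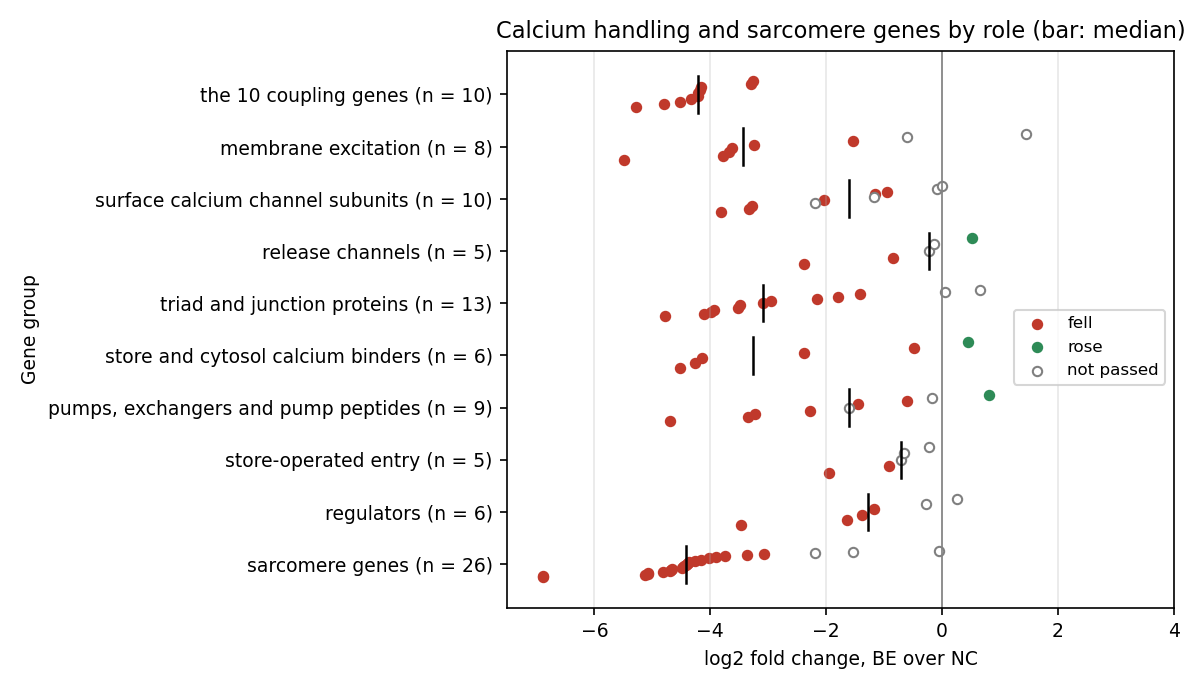
Log2 fold change of BE over NC for the 10 genes, for the wider list by role and for sarcomere genes, with 1 point per gene tested, filled where the call passed, and a bar at the median. The 10 genes have a median of -4.21, sarcomere genes one of -4.41 and other release channels one of -0.22.

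The fall of the 10 genes stood beside a fall of the fibers' other transcripts. Of 30 sarcomere genes listed, 26 were tested, of which 23 fell, 3 did not pass and none rose, beside 21.8% of all genes tested that fell. Their median log2 fold change was -4.41, beside -4.21 for the 10 genes. The largest changes were those of Actn3, an alpha-actinin of fast fibers, at -6.89, and of Myh4, a fast myosin heavy chain, at -6.88. The smallest were those of Tnnc1 (-0.05) and Tnnt1 (-1.54), troponins of slow fibers, which did not pass. Other slow-fiber genes of the list fell: Myl3, a myosin light chain, was at 45.5 to 78.4 CPM in BE and 823 to 2030 CPM in NC (-4.47, adjusted p = 0.000951), and Tnni1, a troponin, at 4.16 to 5.69 CPM in BE and 52.4 to 159 CPM in NC (-4.37, adjusted p = 0.000729). Myh4 did not pass with limma's voom, at an adjusted p of 0.113. Summed over the 28 sarcomere genes in the table, the level was 4499 to 6270 CPM in BE and 91364 to 104582 CPM in NC. Myl2 and Myh7, also of slow fibers, were at or under 0.211 CPM in every library and were not tested.

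Markers of other tissues moved too, while of all genes tested 21.8% fell and 21.8% rose. The 11 smooth muscle genes in the table summed to 604 to 708 CPM in BE and 4696 to 5554 CPM in NC, and 10 of 11 tested fell. A large part of that sum was Des, at 265, 292 and 272 CPM in BE and 2261, 2240 and 2420 CPM in NC. Which muscle cells the Des reads came from was not tested. The 12 genes of squamous epithelium summed to 67956 to 73174 CPM in BE and 39761 to 52890 CPM in NC, and 10 of 12 rose. The 11 genes of developing or regenerating muscle summed to 629 to 1313 CPM in BE and 29087 to 39656 CPM in NC, and 8 of 10 tested fell. Most of that sum was Myh8, at 830, 580 and 1249 CPM in BE and 35485, 31289 and 26467 CPM in NC. Actc1 followed, at 14.3 to 32.7 CPM in BE and 2419 to 3972 CPM in NC, and Myh3 was at 101 to 117 CPM in NC. Lower in NC were Myog, at 17.3 to 23.4 CPM, and Pax7, at 2.08 to 3.42 CPM, among others. Tnnt2 and Myl4 did not pass the test. As most of the sum was Myh8, it is not read as a measure of regeneration. The part of these shifts in the levels of the 10 genes was not tested.

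The genes whose profile over the 6 input libraries was most like the mean profile of the 10, by the root-mean-square (RMS) difference of centred log2 CPM, were Txlnb (0.103), Pkia (0.128), Pfkm (0.128), Myo18b (0.132) and the gene model AABR06024251.1 (0.141). Txlnb, which encodes beta-taxilin of muscle, had 31.8, 32.2 and 39.5 CPM in BE and 761, 689 and 606 CPM in NC. Its log2 fold change was -4.31 ± 0.14. Since these genes were picked for their likeness to the 10 in these same libraries, their fall was given by the choice. It is not a separate result. Pkia encodes an inhibitor of protein kinase A, Pfkm the phosphofructokinase of muscle and Myo18b an unconventional myosin of striated muscle. The 10 genes themselves lay at an RMS difference of 0.129 (Jph1) to 0.582 (Cacnb1) from their own mean profile.

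In the IP libraries the authors called m6A peaks in each library separately. The lists held 20531, 19329 and 20462 peaks in BE and 16644, 18864 and 17311 peaks in NC. Peaks on the 10 genes numbered 17, 14 and 17 in BE, against 19, 25 and 21 in NC. The BE lists held fewer such peaks in each case although they were longer, but the difference in the means, -5.67, gave an exact permutation p of 0.1, the smallest that 3 against 3 lists allow. The genes' peaks were 0.0828, 0.0724 and 0.0831% of the BE lists and 0.114, 0.133 and 0.121% of the NC lists. Calling a peak needs reads of the transcript, and the part of the lower transcript levels in BE in these numbers was not tested.

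Merging peaks that overlap by at least 1 base gave 29269 regions, 29 of them on the 10 genes. Of the 29, 5 (17.2%) were called in all 3 NC lists and no BE list, beside 2.58% of all regions. In all 3 BE lists and no NC list 1 (3.45%) was called, beside 4.31% of all regions. That count lies near the share of all regions and is not read as a result about these genes. In every list 7 (24.1%) were called, beside 38.1% of all regions. The other 16 were called in other mixes of lists. Positions are those of the deposited lists, whose genome build was not given in the sources used here, and the fold enrichment of IP over input is the authors' own value for each peak.

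Cacna1s held 2 of the 5 regions found in NC alone. That at chr13:57947233-57947338 had fold enrichments of 50.6, 72.6 and 41.9 in the NC lists, and that at chr13:57945479-57945797 had 18.3, 14.4 and 18.0. The other 3 were on Cacng1 at chr10:95657668-95657742 (17.4, 13.9 and 13.1), on Stac3 at chr7:70981252-70981290 (10.6, 4.22 and 6.84) and on Jph1 at chr5:1479052-1479170 (8.08, 3.75 and 10.5). The region of Stac3 was that gene's single region. The input levels of these 4 genes were 1.58 to 29.9 CPM in BE and 32.4 to 570 CPM in NC.

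The region found in BE alone was on Ryr1, at chr1:89194281-89194544, with fold enrichments of 7.50, 8.61 and 8.32. Its peak scores were 105, 76.0 and 266, and requiring a score of at least 100 removed it from that class. Ryr1 had 3 peaks in each BE list, against 1, 2 and 2 in the NC lists, while its input level was lower in BE. A further Ryr1 region, at chr1:89204224-89204618, was called in every list.

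The 7 regions called in every list lay on 5 of the genes, all of which fell in the input libraries. Sln had the same 2 regions in all 6 lists, a 23-base one at chr8:57012681-57012703 and a 275-base one at chr8:57016654-57016928. Jph1 had 2 such regions, of which that at chr5:1419580-1420339 had fold enrichments of 25.9, 39.0 and 36.2 in the BE lists and 38.3, 24.7 and 36.7 in the NC lists. Cacng1 had 1, at chr10:95655624-95655990, and Casq2 had 1 of 1291 bases at chr2:224000603-224001893. The fold enrichment ranks peaks within a list, and no change between lists is read from it.

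Casq1 had a single region, at chr13:95123029-95123470, called in all 3 NC lists and in BE lists 1 and 3. Cacnb1 had 4 regions, none of them called in all 6 lists or in 1 group alone. Casq2 had 5 regions, and 3, 4 and 3 peaks in the BE lists against 2, 4 and 3 in the NC lists. Atp2a1, which fell most, had no peak in any list under its symbol or its gene identifier. Of all genes tested for expression 73.2% had a peak in at least 1 list, and of the 96 with at least 1000 CPM in NC, 64.6% had one.

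**Figure D5:**
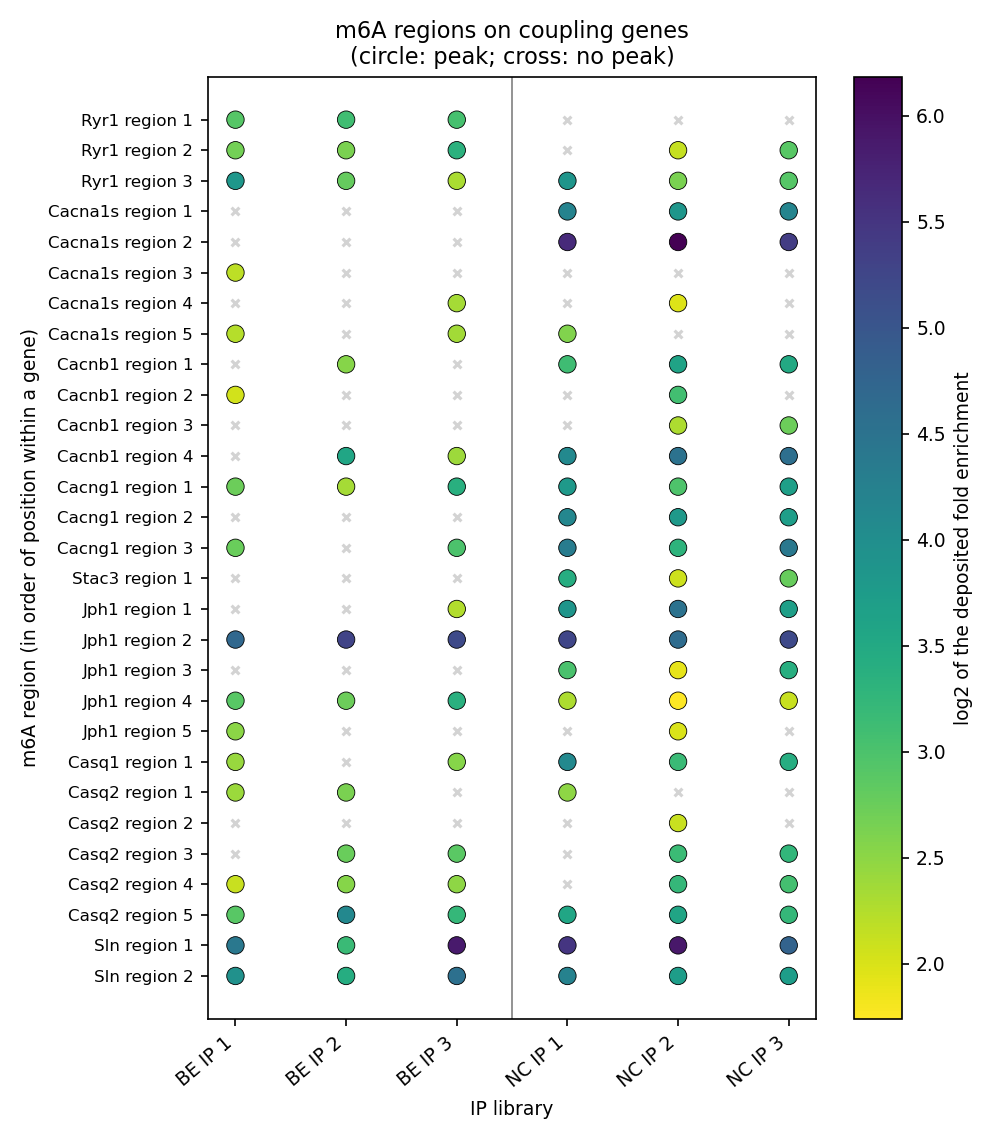
Merged m6A regions of the genes examined (rows) in the 6 IP lists (columns, BE left of NC), with a circle where a peak was called, coloured by the log2 of the authors' fold enrichment, and a cross where none was. The 2 Cacna1s regions and those of Cacng1, Stac3 and Jph1 found in NC alone have crosses in all 3 BE columns, and Ryr1 region 1 has crosses in all 3 NC columns.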

How the data were processed

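Total RNA of rat esophageal tissue was sequenced in 12 libraries, 3 input and 3 m6A IP libraries per group, with groups and replicates as the sample labels give them. Per the submitters' processing notes, cutadapt 1.9.3 and HISAT2 2.0.4 were used. The build, the annotation, the counting tool, its use of strand and the caller of peaks were not given in the sources used here. The authors deposited raw read counts per gene for the input libraries. The same table holds 6 further per-sample columns that were not used. The authors deposited 1 peak list per IP library, with a fold enrichment ratio and a score per peak, which are their own values.

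Counts were analysed with edgeR 4.0.16 in R 4.3.3 (filterByExpr with a minimum count of 10, TMM, robust quasi-likelihood fit, two-sided, Benjamini-Hochberg adjustment over 13761 genes). The fit was also run on simulated counts in which few genes changed, as many up as down. A shift as wide as that between BE and NC was not simulated. Log2 ratios used a prior count of 2. Ratios and peak numbers were compared with two-sided exact permutation tests in SciPy 1.17.1. Alternatives were DESeq2 1.42.0, its size factors, limma 3.58.1 voom with sample quality weights, no filter on low counts, a replicate block, leaving out each library, and stricter peak thresholds. The 10 genes and the lists were chosen with earlier results of these data known. The text names all 10 genes, their tested relatives in the families Ryr, Cacna1, Cacnb, Cacna2d, Jph, Stac and Atp2a with Pln, the 6 further calcium handling genes that changed most with at least 5 CPM and the 3 most abundant that did not pass, 4 sarcomere genes with the largest or smallest changes, and the 5 nearest profiles. Cacng6, Itpr2, Calm2, Myl3 and Tnni1 were named after their values were seen, as were the marker genes of other tissues.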

Additional observations from a re-analysis of the deposited data

How the results depend on the processing

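All 10 genes fell at an adjusted p under 0.05 in edgeR's test and under each of the 11 alternatives, with log2 fold changes between -5.42 (Atp2a1) and -3.10 (Casq2) and a largest adjusted p of 0.00371 (Sln). Genes called numbered 5995, and 4903 to 6154 with 1 library left out. Deviations of same-numbered BE and NC libraries correlated at -0.041, 0.006 and -0.073, and those of differently numbered ones at -0.028 to 0.066. No pairing by number was seen, but with 3 libraries per group these values cannot show whether samples were paired. A replicate block in the fit gave 5223 called genes, with all 10 among them, and 39 of the wider list fell instead of 42. With a score of at least 100, 0 regions were found in BE alone instead of 1. The BE minus NC difference in peaks on the 10 genes per list was -7.67 at that score and -4.33 at a fold enrichment of at least 5.

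With 1 library left out, the BE minus NC difference of Stac3 over Cacna1s ran between -0.047 (without BE replicate 1) and 0.63, and that of Jph1 over Ryr1 between -0.20 (without BE replicate 1) and 0.18, with -0.018 without NC replicate 3. The log2 fold change of Ryr2 ran between -0.60 and 0.10 (without BE 2), with 0.072 without NC 1. That of Cacnb3 ran between -0.35 and 0.24 (without NC 3), with 0.017 and 0.052 without BE 1 and BE 2, and that of Stac2 between -0.95 and 0.57 (without BE 3), with 0.31 and 0.050 without NC 1 and NC 2. Tnnc1 turned to 1.67 with voom, 1.49 with the block, and to 0.39, 0.071 and 3.05 without BE 1, BE 3 and NC 1, and was as low as -0.73. Tnnt1 turned to 0.36 with voom and 1.87 without NC 1, and was as low as -2.10. Ryr2, Cacnb3, Stac2, Tnnc1 and Tnnt1 did not pass the test in edgeR's fit of all libraries, and the cause of each turn was not tested. Low counts limit Cacng1, with 28 to 37 reads per BE library, and 3 libraries per group limit every permutation p to at least 0.1.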

Other observations

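Trdn, which encodes triadin, the protein that anchors calsequestrin to the release channel, was singled out after its values were seen. It had 18.2, 9.98 and 13.7 CPM in BE, against 235, 207 and 201 CPM in NC, and fell by 3.94 ± 0.22 on the log2 scale (edgeR, adjusted p = 1.61e-06). Trdn carried 23, 20 and 28 m6A peaks in the BE lists, against 28, 28 and 27 in the NC lists, and the groups overlapped.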
